A study of Mus musculus with 23 samples.

Results

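The genes described here are 51 developmental homeobox genes that lie outside the HOX clusters, from the LIM (Lhx and Isl), NK, DLX, IRX and TALE (Meis) families, Six2, Six3 and Six6, genes of the head and midbrain (Otx, Emx, En, Gbx2), of limb and face (Msx, Pitx, Gsc, Alx4), of gut and body axis (Cdx, Pdx1, Hhex), and Pou4f1, Prox1 and Pax6. Their DNA methylation was read in mouse skeletal muscle, its cultured precursor cells and embryonic stem cells by a restriction-enzyme assay that reports fragments of the genome. A fragment was counted for a gene when it was under 2000 bp long and touched the gene, or the 2000 bp ahead of its start, in the mouse genome build mm9. This rule gave 242 fragments in 50 genes (Dlx5 had none) out of 52313 fragments under that length and 173430 fragments in all. No fragment was shared by a pair of these genes, and 58 also lay in some other gene.

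Homeobox genes encode transcription factors that bind DNA through a conserved helix-turn-helix domain and set regional and cell identity in the embryo. Many of those listed here sit in long CpG islands, stretches rich in CG dinucleotides that as a rule are unmethylated, and in embryonic stem cells a large share of such islands is occupied by Polycomb repressive complexes rather than by DNA methylation. The flanks of islands, called shores, are where differences in methylation between tissues are often found.

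The assay, AIMS-seq, cuts genomic DNA first with SmaI, which cleaves CCCGGG only when its central CG is unmethylated and leaves blunt ends, and then with XmaI, which cleaves the remaining, methylated sites and leaves cohesive ends. Adaptors join cohesive ends alone, so a fragment is amplified and sequenced when the sites at both of its ends were methylated on the same molecule. A level is given here as the count of a fragment per 1000000 reads of its library (CPM). It is not a percentage of methylation, and in these bulk samples fewer methylated cells and fewer methylated molecules per cell cannot be told apart.

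The 23 libraries fall into 9 groups. The embryonic stem (ES) cells were 3 lines, CGR8 (129Sv, male, sequenced in 2 technical runs that were summed for tests), RD1 (129X1/SvJ, male) and E14Tg2 (129/Ola, sex not given). The proliferating primary myoblasts at passage 8 to 10 and the myotubes 1, 2 and 4 days after the switch to low-serum differentiation medium came from the same 3 C57BL/6J cultures, numbered 21, 27 and 26. The sample titles mark culture 21 as wt and give no genotype for cultures 26 and 27. Passage 0 cells (C57BL/6J) came from cultures 26 and 27. Uncultured C57BL/6J muscle precursor cells, taken directly from tissue, were represented by 1 library, and by 1 more taken 3 days after cardiotoxin injury. Whole skeletal muscle was sampled 3 times, muscle 1 and muscle 2 from a mixed 129Sv and C57BL/6J background and muscle 3 from C57BL/6J. All samples other than E14Tg2 were male, no age was given, the ES lines were all from 129 strains, and every other library was wholly or partly C57BL/6J. The labels do not say whether cultures and muscles came from separate animals, so p-values measure the spread between these libraries. The libraries held 6237851 to 14696855 reads, at which 3 reads, the limit that a count of 0 allows, correspond to 0.204 to 0.481 CPM; this limit covers counting error only, since amplified reads carried no molecular identifiers.

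Before the results, some libraries stand apart. Culture 21 carried few reads over CpG islands at every stage: at day 4, fragments spanning island and shore, over the whole genome, held 1294 CPM in culture 21, 8665 CPM in culture 26 and 34023 CPM in culture 27. Among the muscles the same class held 28375, 38516 and 13127 CPM in muscle 1, 2 and 3. The pair of CGR8 runs also differed, with 2118 and 4008 CPM.

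The fragments that the results turn on are shown by their sequence, since they differ in CG density and in their place in the gene. All are read on the plus strand of mm9, 5′ to 3′, and capitals mark the part of the CCCGGG site that stays on the fragment at each end. A fragment is called promoter when it touches the stretch from 2000 bp before to 500 bp after any annotated start of the gene. The Lhx2 fragment of 578 bp (chr2:38205505-38206082) lies in a shore, ahead of an annotated internal start of Lhx2 and within the longest annotated span of the gene, and its first 300 bases (chr2:38205505-38205804) hold 4 CG dinucleotides.
Lhx2 shore: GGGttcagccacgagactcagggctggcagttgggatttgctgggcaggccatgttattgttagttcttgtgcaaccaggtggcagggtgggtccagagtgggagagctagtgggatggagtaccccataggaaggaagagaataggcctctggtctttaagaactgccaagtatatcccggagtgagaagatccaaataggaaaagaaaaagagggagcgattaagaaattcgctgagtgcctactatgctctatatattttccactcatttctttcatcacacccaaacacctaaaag
The En1 fragment of 440 bp (chr1:122500620-122501059) lies in the intron, in a shore, and its first 300 bases (chr1:122500620-122500919) hold 10.
En1 intron shore: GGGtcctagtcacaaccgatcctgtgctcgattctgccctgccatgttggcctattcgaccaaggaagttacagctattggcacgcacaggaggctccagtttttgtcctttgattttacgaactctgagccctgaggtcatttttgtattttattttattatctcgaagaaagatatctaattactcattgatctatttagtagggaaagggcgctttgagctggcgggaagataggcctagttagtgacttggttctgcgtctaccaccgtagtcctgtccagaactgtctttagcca
A run of adjacent fragments in an Lhx4 intron begins inside a CpG island (156 bp, chr1:157584843-157584998, 8 CG dinucleotides) and ends in the shore (195 bp, chr1:157585312-157585506, 6 CG dinucleotides), and is shown because the same direction was measured across that boundary.
Lhx4 intron island: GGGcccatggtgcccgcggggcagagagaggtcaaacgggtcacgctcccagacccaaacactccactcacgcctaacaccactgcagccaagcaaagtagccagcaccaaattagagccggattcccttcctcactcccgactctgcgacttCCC
Lhx4 intron shore: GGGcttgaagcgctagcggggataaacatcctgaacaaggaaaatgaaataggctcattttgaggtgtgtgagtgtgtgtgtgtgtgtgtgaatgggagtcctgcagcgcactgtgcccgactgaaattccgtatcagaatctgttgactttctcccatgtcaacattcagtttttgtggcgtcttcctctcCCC
The Irx4 fragment (224 bp, chr13:73401142-73401365, intron, shore) held 7 CG dinucleotides, and the Isl1 fragment (226 bp, chr13:117095557-117095782) is coding exon with 11 of them and is shown because its levels lay far apart between libraries of 1 group.
Irx4 intron shore: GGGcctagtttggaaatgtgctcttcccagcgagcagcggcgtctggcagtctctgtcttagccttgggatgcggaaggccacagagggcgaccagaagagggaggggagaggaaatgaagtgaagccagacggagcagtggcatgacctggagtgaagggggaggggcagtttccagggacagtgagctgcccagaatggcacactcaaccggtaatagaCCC
Isl1 coding exon: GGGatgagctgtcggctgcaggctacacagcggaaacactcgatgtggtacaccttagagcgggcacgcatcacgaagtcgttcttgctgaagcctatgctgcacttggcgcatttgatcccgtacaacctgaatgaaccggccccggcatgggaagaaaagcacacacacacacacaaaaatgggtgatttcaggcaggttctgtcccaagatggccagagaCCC
The Alx4 fragment of 630 bp (chr2:93502296-93502925) is an intron outside islands and shores, and its first 300 bases (chr2:93502296-93502595) hold 3. It is shown because its level was lower in muscle and myoblasts than in ES cells, against the direction of most of the others.
Alx4 intron outside: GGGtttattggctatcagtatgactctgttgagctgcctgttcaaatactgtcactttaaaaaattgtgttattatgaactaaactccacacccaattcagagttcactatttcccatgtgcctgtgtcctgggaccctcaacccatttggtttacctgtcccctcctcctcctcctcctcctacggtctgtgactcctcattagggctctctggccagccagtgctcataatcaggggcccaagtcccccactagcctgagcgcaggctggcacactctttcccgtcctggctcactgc

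Most of the homeobox fragments lay in or at CpG islands, and most of those were hardly read in any library. Of the 242 fragments, 104 were inside islands, 64 spanned island and shore, 43 were shore and 31 lay outside both. At least 1 CPM in any library was reached by 9 of the 104 island fragments (8.7%, against 3.3% of all island fragments of this length), by 8 of 64 spanning island and shore (12.5% against 20.0%), by 25 of 43 in shores (58.1% against 50.2%) and by 17 of 31 outside (54.8% against 49.2%). Over all classes, 59 of 242 reached it (24.4%, against 37.5% of all fragments under 2000 bp), and 71 had no read in any of the libraries (29.3%, against 37.6% of all). Inside islands 47.1% had no read, against 61.3% of all island fragments. In 17 genes no fragment reached 1 CPM: Cdx2, Emx1, En2, Gbx2, Irx3, Isl2, Lhx3, Lhx8, Lhx9, Msx1, Msx2, Nkx2-5, Nkx6-1, Pitx3, Pou4f1, Six2 and Six3. Among them Nkx2-5, a regulator of heart formation, reached 0.435 CPM at most, Six2, which maintains kidney progenitors, 0.278 CPM, and Irx3 0.363 CPM. Cdx2, a factor of trophectoderm and intestine, and Msx1, a factor of limb and tooth development, had no read in any library.

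The homeobox fragments were longer than the rest, with a median of 377 bp against 217 bp, and denser in CG, with an observed-to-expected CG ratio of 0.626 against 0.44. By class the ratio was higher than in all fragments within shores (0.477 against 0.351) and outside (0.436 against 0.343), and lower inside islands (0.736 against 0.808) and across island and shore (0.583 against 0.604). Median lengths were 199 against 156 bp inside islands, 795.5 against 662 bp across island and shore, 482 against 554 bp in shores and 467 against 200 bp outside. The median GC content was 60.3% against 60.9%. In the RefSeq promoter table (build GRCm38.p6, 250 bases before to 50 after each start), 38 of the 51 genes were found. The site CCCGGG, which reads the same on both strands, occurred in any promoter of 15 of those genes (39.5%, against 15.0% of 27025 gene symbols). Genes with several starts had more chances to hold a site.

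Summed over the homeobox fragments of a class, reads in shores were on average lowest in ES cells and highest in muscle. Shore fragments held 182.6 and 295.9 CPM in the CGR8 runs, 374.1 CPM in RD1 and 202.1 CPM in E14Tg2, against 1829, 2316 and 913.2 CPM in muscle 1, 2 and 3, so the groups did not overlap. Group means were 268.1 ± 92.7 CPM (SD, n = 3 lines) in ES cells and 1686 ± 712 CPM (SD, n = 3) in muscle. A few fragments carried most of the muscle sum. The most-read shore fragments of Cdx1, Lhx2, En1, Dlx6 and Dlx1 held means of 288.1, 276.2, 251.1, 249.6 and 221.7 CPM in muscle. In ES cells they held 29.7, 15.23, 39.76, 31.3 and 17.85 CPM. Shores of the whole genome held 38564 ± 3152 and 67988 ± 14980 CPM (SD, n = 3 each), and the homeobox share of all shore reads was 0.699% ± 0.254 in ES cells and 2.40% ± 0.567 in muscle (SD, n = 3 each). This share also did not overlap between the groups, at 0.45% to 0.991% in ES libraries and 1.76% to 2.84% in muscles.

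Fragments spanning island and shore held 32.1 ± 18.7 CPM in ES cells and 392.5 ± 202 CPM in muscle (SD, n = 3 each), and their share of all reads of that class was 0.861% ± 0.280 and 1.46% ± 0.0734. Fragments inside islands held 4.04 ± 3.56 CPM in ES cells and 44.2 ± 28.8 CPM in muscle (SD, n = 3 each), shares of 0.420% ± 0.190 and 0.878% ± 0.128. Outside islands and shores the sums were closer together, at 778.9 ± 83.7 and 952.5 ± 160 CPM (SD, n = 3 each), and the libraries overlapped. These sums carry no test.

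The mean shore sums of myoblasts and myotubes lay between those of ES cells and muscle, with wide spreads. Shore sums were 797 ± 437 CPM in myoblasts, 1113 ± 1044 CPM at day 1, 793 ± 451 CPM at day 2 and 1064 ± 743 CPM at day 4 (SD, n = 3 cultures each), and 664.9 and 361.4 CPM in the passage 0 libraries of cultures 26 and 27. The freshly isolated cells held 954.3 CPM and those taken after injury 566.9 CPM, with 1 library each. In culture 21 the shore sum was 293.3 CPM in myoblasts and 382.4 CPM at day 4, within the ES range at the first and just above it at the second, while in culture 27 it was 1018 and 1857 CPM.

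**Figure D1:**
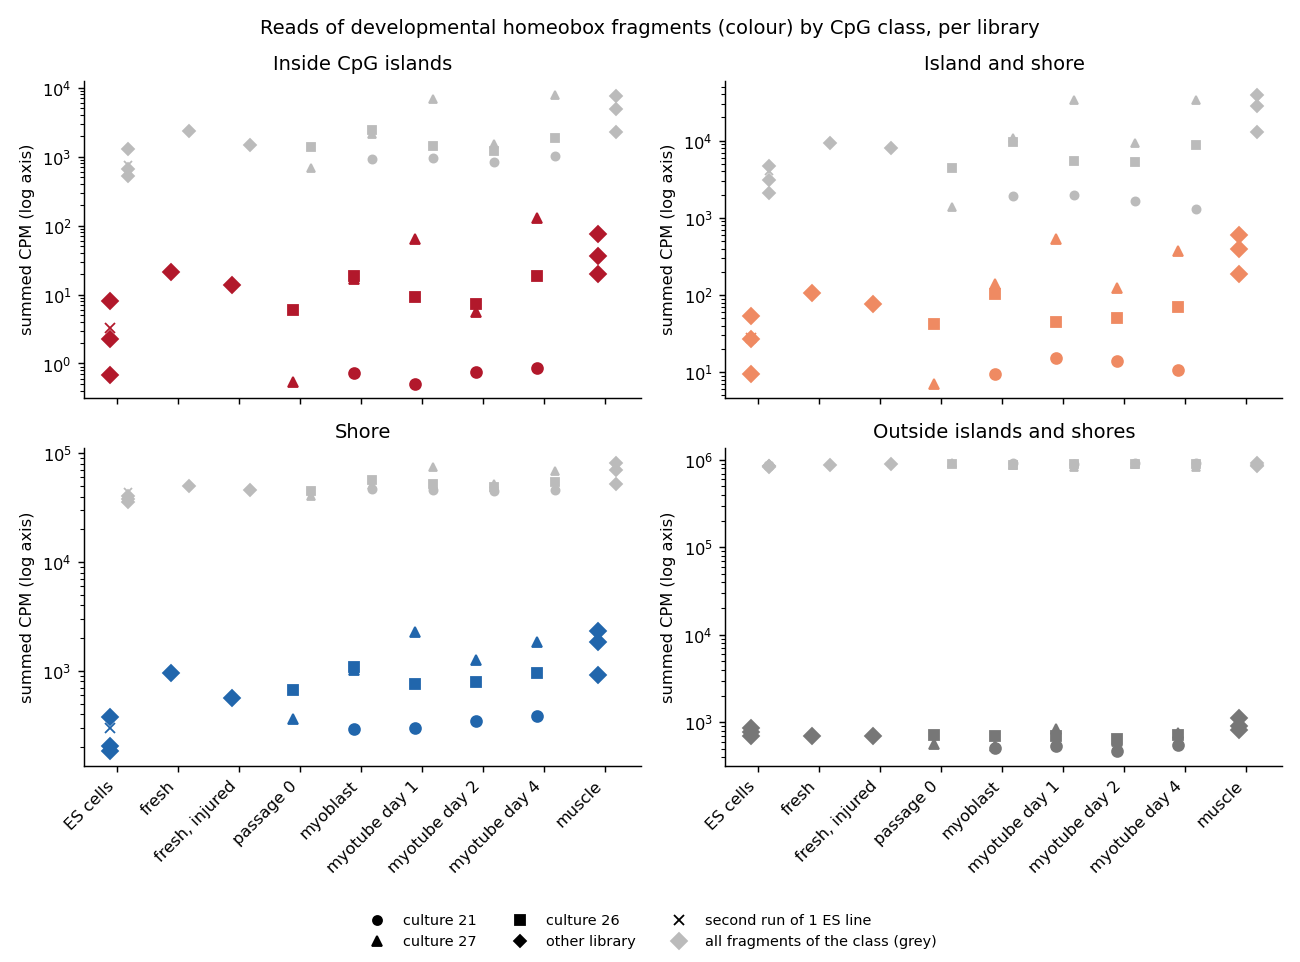
Summed CPM (log axis) of the homeobox fragments (coloured points) and of all fragments of the same class (grey points) in each library, by CpG class and sample group; symbols mark the culture. The coloured shore points lie at 182.6 to 374.1 CPM in ES cells and at 913.2 to 2316 CPM in muscle, and culture 21 sits lowest among the shore points of myoblasts and myotubes.

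Skeletal muscle against ES cells was the comparison with the most called homeobox fragments. Of the 242 fragments, 44 had enough reads to be tested, and with edgeR's quasi-likelihood test at an adjusted p under 0.05, 33 were higher in muscle and 2 were lower, in 24 genes. Over all 22980 fragments tested, 24.4% were higher and 34.6% were lower, while among those shorter than 2000 bp the shares were 33.9% higher and 18.4% lower. The median log2 change was 2.99 for the homeobox fragments and 0.34 for all tested fragments under 2000 bp. The filter on low counts could be passed through muscle alone, where a fragment had to differ. Of the 44, 14 passed in every library of muscle only, and 13 of these were higher. They were Lhx4 (156 and 313 bp), Lhx2 (482 bp), Meis2 (492 bp), Cdx1 (73 bp), Pitx1 (774 and 699 bp), Meis1, Irx1, Irx4, Otx1, Otx2 and Emx2. Their p-values are not independent support, since their entry depended on a high level in muscle. Of the 28 that passed in every library of both groups 19 were higher and 2 lower. In 28 of the 35 called fragments the libraries of the groups did not overlap in CPM (80.0%), as in 71.2% of all called fragments under 2000 bp and 79.7% of all called fragments of any length.

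Counts differed by CpG class. In shores 19 of 22 tested homeobox fragments were higher, against 59.6% of all shore fragments tested, with a median log2 change of 3.24 against 1.92. Inside islands 2 of 3 were higher (91.4% of all island fragments) and across island and shore 4 of 4 (85.7%). Outside both, 8 of 15 were higher and 2 lower (29.0% and 19.9% of all). Scaling matters to these values: edgeR's TMM factors put the median change over every fragment tested at -0.34 on the log2 scale, whereas plain library totals place it at -1.17. With library totals, 25 homeobox fragments were higher and 4 lower, with 15.9% and 48.1% of all fragments tested.

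**Figure D2:**
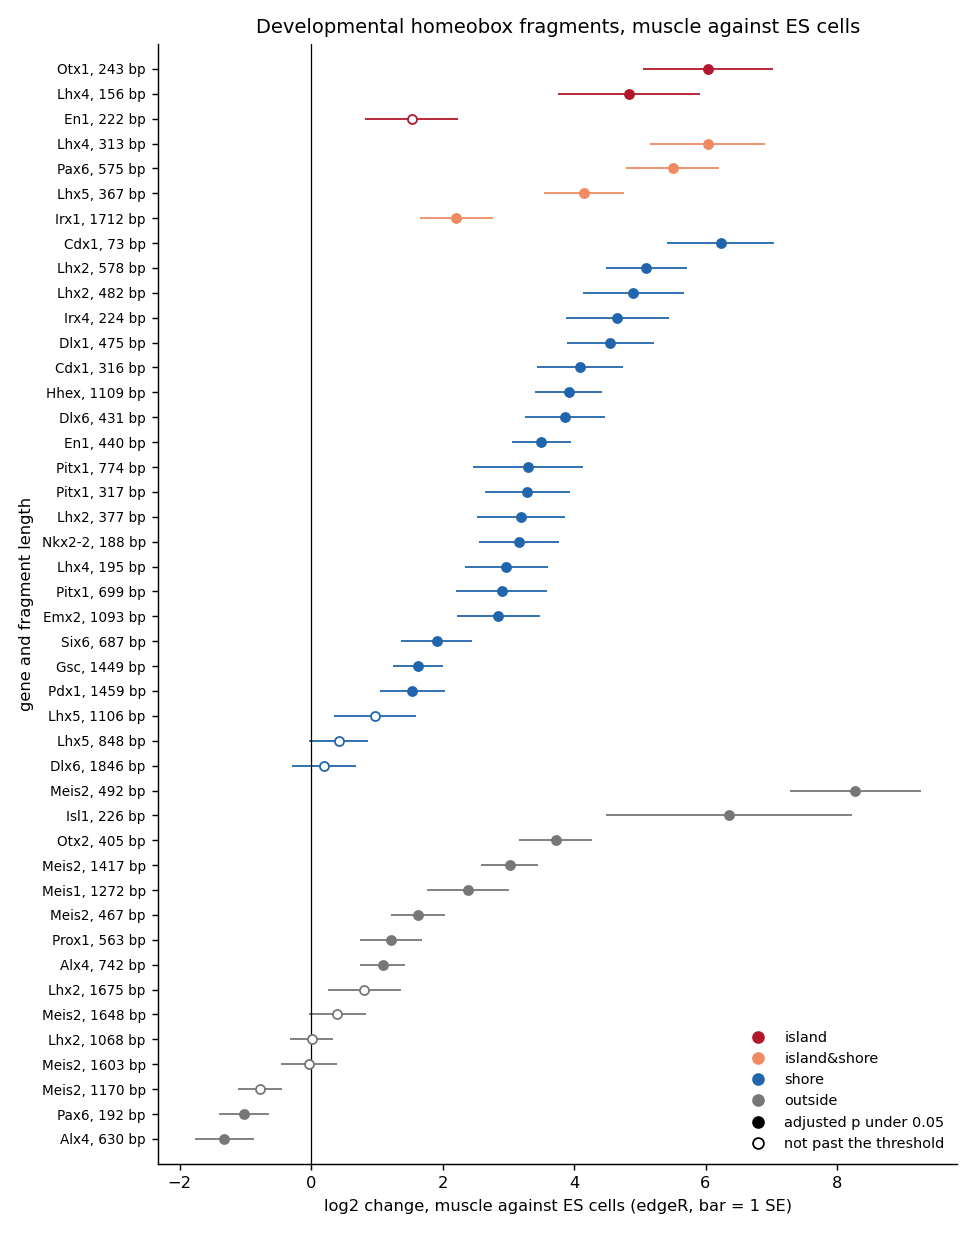
Log2 change between muscle and ES cells (horizontal axis, edgeR, bars of 1 SE) for the 44 tested homeobox fragments, named by gene and length and coloured by CpG class. Filled points passed the threshold: 33 lie to the right of 0 and 2, in Alx4 and Pax6, to the left.

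Among the LIM genes, which pattern motor neurons, forebrain and pituitary, 8 of 12 tested fragments were higher in muscle and none was lower. Of all tested fragments under 2000 bp, 33.9% were higher and 18.4% lower. By class 59.6% were higher in shores, 85.7% across island and shore, 91.4% inside islands and 29.0% outside. The family counts here and below were not tested against these shares. The Lhx2 promoter shore fragment, from a gene required for eye and forebrain formation, held 5.65 and 16.3 CPM in the CGR8 runs, 23.7 in RD1 and 12.1 in E14Tg2. It held 290.8, 415.0 and 122.8 CPM in muscle 1, 2 and 3, each above every ES library, a log2 change of 5.10 ± 0.62 (SE; edgeR, adjusted p = 0.000137). Another Lhx2 promoter fragment of 482 bp and an intron fragment of 377 bp, both shore, were also higher (4.90 and 3.19), while 2 adjoining fragments 3′ in the gene and outside the island, of 1068 and 1675 bp, did not pass (0.01 and 0.81). The first of these held 72.2 to 89.8 CPM in ES libraries and 41.8 to 46.2 CPM in muscle, so its direction depends on the scaling: with library totals it was lower (-0.82, adjusted p = 0.0418). The remaining 10 Lhx2 fragments, all touching its islands, stayed under 1 CPM in all libraries.

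The Lhx4 fragments of 156, 313 and 195 bp lie end to end, from the island into the shore of a gene that acts in pituitary and motor neuron development, and share the cut sites between them. Their levels were higher in muscle by 4.83, 6.03 and 2.97 on the log2 scale (edgeR, adjusted p = 0.00382, 0.000359 and 0.00309). The fragments of 156 and 313 bp passed the filter on low counts through muscle alone. The island fragment held 0.0680 and 0.306 CPM in the CGR8 runs, 3.47 in RD1 and 0.119 in E14Tg2, against 14.9, 29.0 and 9.85 CPM in the muscles. The other 5 Lhx4 fragments did not reach 1 CPM in any library. In Lhx5, a factor of forebrain and cerebellar development, the fragment spanning island and shore held 4.70 to 38.1 CPM in ES libraries and 170.2, 327.1 and 122.8 CPM in muscle (4.15 ± 0.61, edgeR, adjusted p = 0.00039), and its promoter and exon fragments of 1106 and 848 bp did not pass (0.97 and 0.42). The Isl1 coding exon fragment, of a gene used by motor neurons, heart progenitors and pancreas, was called higher (6.36 ± 1.87, edgeR, adjusted p = 0.0147) although muscle 1 had 0.0925 CPM beside 213.2 and 44.2 CPM in muscle 2 and 3. The groups overlap there, and ES libraries ranged from 0 to 5.81 CPM. The call was lost in 4 of 13 other settings, among them the omission of muscle 2 or of E14Tg2.

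Of the TALE genes, whose products partner HOX proteins on DNA, 4 of 7 fragments were higher and none was lower. All were in Meis1 or Meis2 and outside islands and shores, where 29.0% of all tested fragments were higher and 19.9% lower. A 492 bp Meis2 intron fragment that carries a LINE repeat (chr2:115771779-115772270) had 0.272 and 1.22 CPM in the CGR8 runs and no read in RD1 or E14Tg2. It had 20.4 to 150.1 CPM in every one of the other 19 libraries, and in muscle 59.2, 33.7 and 91.1 CPM (8.28 ± 1.00, edgeR, adjusted p = 0.000128). It passed the filter on low counts through muscle alone. The ES lines are 129 strains, muscle 1 and 2 carry a mixed 129Sv and C57BL/6J background and muscle 3 is C57BL/6J, and the part of strain in this fragment's level was not tested. The 1417 bp intron fragment of Meis2 held 2.63 to 5.30 CPM in ES libraries and 16.1, 13.6 and 17.5 CPM in muscle (3.02 ± 0.43, edgeR, adjusted p = 0.000319). The 467 bp fragment overlapped between the groups (111.2 to 203.8 CPM against 173.6 to 296.3 CPM) and was called at 1.63. With library totals its change was 0.76 and was not called (edgeR, adjusted p = 0.0523). The Meis1 fragment was higher by 2.39 and was likewise not called with library totals (1.48). Of the other Meis2 fragments tested, those of 1648, 1603 and 1170 bp did not pass (0.40, -0.03 and -0.78). The 1170 bp fragment held 37.9 to 55.8 CPM in ES libraries and 12.2 to 17.5 CPM in muscle. With library totals it was called lower (-1.63, edgeR, adjusted p = 0.0036), while those of 1648 and 1603 bp were not called. A further 6 Meis2 shore fragments never reached 1 CPM.

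In the genes of head and midbrain 4 of 5 tested fragments were higher (of all tested, 59.6% in shores, 91.4% inside islands and 29.0% outside). The En1 intron shore fragment, of a gene that positions midbrain and hindbrain, held 38.4 and 47.3 CPM in the CGR8 runs, 44.3 in RD1, 33.0 in E14Tg2 and 323.5, 265.1 and 164.8 CPM in muscle. All muscles lay above all ES libraries, by 3.50 ± 0.45 (edgeR, adjusted p = 0.000174). The neighbouring En1 exon fragment of 222 bp, inside the island, did not pass (1.53, adjusted p = 0.0893). Otx1 and Otx2, needed for forebrain and midbrain, each had a promoter fragment that was higher (6.04 and 3.72), and Emx2, a cortical patterning gene, had a promoter fragment that was higher by 2.85. These Otx1, Otx2 and Emx2 fragments passed the filter through muscle alone. The Otx2 fragment held 0.680 to 2.98 CPM in ES libraries and 15.6, 14.1 and 9.16 CPM in muscle.

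All 4 tested fragments of the gut and body axis genes were higher, and all lay in shores, where 59.6% of all tested fragments were higher. Cdx1, which acts in hindgut and axial patterning, had adjoining intron shore fragments of 73 and 316 bp with changes of 6.23 and 4.09. The shorter one passed the filter through muscle alone. The longer one held 16.7 to 50.1 CPM in ES libraries and 269.0, 454.2 and 141.1 CPM in muscle. Hhex, of liver and thyroid development, was higher in its promoter shore (3.92 ± 0.51, edgeR, adjusted p = 0.000211; 1.29 to 2.88 CPM against 24.1, 21.2 and 10.8 CPM). Pdx1, the pancreatic factor, overlapped between the groups and was called at 1.54 with TMM but not with library totals (0.63).

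DLX and IRX genes, which pattern forebrain interneurons, face and heart, had 2 of 3 and 2 of 2 tested fragments higher. These lay in shores (59.6% of all tested fragments higher), apart from Irx1 across island and shore (85.7%). The Dlx1 promoter shore fragment held 5.85 to 33.4 CPM in ES libraries and 299.7, 258.3 and 107.2 CPM in muscle (4.55 ± 0.66, edgeR, adjusted p = 0.000367). The Dlx6 exon fragment of 431 bp held 17.7 to 42.0 CPM and 260.4, 379.3 and 109.0 CPM (3.86), and the fragment next to it, of 1846 bp, did not pass (0.20). The Irx4 intron fragment, of a gene of the cardiac ventricle, held 0.0680 to 2.98 CPM against 18.5, 28.4 and 8.06 CPM (4.66), and an Irx1 exon fragment was higher by 2.21. Both passed the filter through muscle alone. The Irx1 fragment held 0.0680 to 0.8926 CPM in ES libraries and 1.665, 1.338 and 1.493 CPM in muscle, and was not called with library totals (1.34). Nkx2-2, of ventral neural tube and pancreas, was higher in a 188 bp exon fragment (3.16; 1.16 to 6.25 CPM against 16.4, 16.7 and 11.4 CPM). Otx1, Emx2, Irx1, Irx4, Gsc, Pdx1 and Lhx1 are named after their values were seen.

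Of the limb and face genes 5 of 6 tested fragments were higher and 1 was lower. Over all tested fragments 59.6% were higher and 10.0% lower in shores, and 29.0% and 19.9% outside. Pitx1, which specifies the hindlimb, was higher in all 3 tested fragments, at 3.29 (317 bp), 3.30 (774 bp) and 2.90 (699 bp), while its 6 fragments touching islands stayed under 1 CPM. Gsc, a gene of the organizer and of the face, was higher by 1.62, with ES libraries at 7.65 to 12.4 CPM and muscles at 14.6 to 18.9 CPM, and was not called with library totals (0.73). Alx4, of face and limb, gave both directions. Its coding exon fragment of 742 bp was called higher by 1.09, with overlapping libraries (158.5 to 220.4 CPM against 217.4 to 287.2 CPM), and was not called with library totals (0.22). Its intron fragment was lower by 1.32 ± 0.45 on the log2 scale (log2 change -1.32, edgeR, adjusted p = 0.0282). That fragment held 1.09 CPM in the first CGR8 run and 33.6 CPM in the second, 51.5 in RD1 and 33.9 in E14Tg2, against 6.01, 6.69 and 9.26 CPM in muscle, so a single ES run lay below the muscles.

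Pax6 and Prox1, of eye and of lymphatic and liver development, also gave contrasting fragments. The Pax6 promoter fragment spanning island and shore held 2.18 to 10.6 CPM in ES libraries and 197.1, 224.4 and 50.7 CPM in muscle (5.50 ± 0.71, edgeR, adjusted p = 0.000191). A 192 bp Pax6 exon fragment outside the island held 126.6 and 108.2 CPM in the CGR8 runs, 127.0 in RD1 and 93.6 in E14Tg2, against 23.1, 24.9 and 51.5 CPM in muscle. It was lower in all muscles than in all ES libraries (log2 change -1.02 ± 0.38, edgeR, adjusted p = 0.0394), and this call was lost in 8 of 13 other settings, among them the omission of any ES line, of muscle 1 or of muscle 2. The Alx4 call was lost in 7 of 13, including the omission of RD1, E14Tg2, muscle 1 or muscle 2. The coding exon fragment of Prox1 was called higher at 1.21 (edgeR, adjusted p = 0.0467) with overlapping libraries, and was not called with library totals (0.38) or in 7 other settings.

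Cultured myoblasts differed from ES cells at fewer homeobox fragments. Of 40 tested, 7 were higher and 3 lower in myoblasts, and over all 25152 fragments tested 8.22% were higher and 11.7% lower (10.7% and 8.4% of those under 2000 bp). The median log2 change was 0.94 against 0.17 for all under 2000 bp. Higher were the Lhx2 fragments of 578 and 377 bp, En1, Nkx2-2, Hhex and the Meis2 fragments of 492 and 1417 bp. Of the 23 that passed the filter on low counts in every library of both groups, 6 were higher and 2 lower. The Meis2 fragment of 492 bp passed through myoblasts alone, and the lower Alx4 intron fragment through ES cells alone. The Lhx2 promoter fragment held 65.0, 193.8 and 124.7 CPM in cultures 21, 27 and 26 (3.21 ± 0.50, edgeR, adjusted p = 0.00153), and En1 126.5, 315.8 and 135.1 CPM (2.37 ± 0.45, edgeR, adjusted p = 0.0049). For both, all cultures lay above all ES libraries, and the calls held in all 13 other settings run, as did those of the Meis2 LINE fragment and Nkx2-2. Nkx2-2 held 24.1, 30.6 and 23.3 CPM (3.31, adjusted p = 0.00529 by edgeR).

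Lower in myoblasts than in ES cells were Prox1, Alx4 and Six6. The Prox1 exon fragment held 194.1 and 114.7 CPM in the CGR8 runs, 143.7 in RD1 and 65.4 in E14Tg2, and 1.18, 26.4 and 7.94 CPM in the myoblasts of cultures 21, 27 and 26, with no overlap (-3.47 ± 0.87, edgeR, adjusted p = 0.0202). The Alx4 intron fragment held 0.362, 4.34 and 3.77 CPM in myoblasts (-3.42 ± 0.78, edgeR, adjusted p = 0.0127), and only the first CGR8 run, at 1.09 CPM, reached into that range. The promoter shore fragment of Six6, an eye and pituitary gene, held 21.8 to 59.4 CPM in ES libraries and 6.97, 24.8 and 12.2 CPM in myoblasts (-1.53 ± 0.47, edgeR, adjusted p = 0.0474). The Six6 call was lost in 11 of 13 other settings, that of Prox1 in 3 (all groups in 1 fit, without CGR8, without culture 26) and that of Alx4 in 2. Among the higher calls, Hhex was lost in 10 settings and the Lhx2 377 bp and Meis2 1417 bp fragments in 9 each. Without culture 21, which had few island reads, 18 homeobox fragments were higher in myoblasts than in ES cells, and without culture 27, culture 26 or E14Tg2 4 were. Over all fragments tested, 3922 of 28173 were higher without culture 21. Without culture 27, culture 26 or E14Tg2 it was 2119 of 28000, 1794 of 28482 and 1523 of 27629.

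At day 4 of differentiation, 6 of 43 tested fragments were higher than in ES cells and none was lower, with 5.42% and 5.93% of all 25497 tested fragments higher and lower (7.2% and 0.8% of those under 2000 bp). The 6 were Lhx2 (578 bp), En1, Nkx2-2, Hhex and the Meis2 fragments of 492 and 1417 bp, all of which had also been called in myoblasts. Both comparisons share the ES libraries. Of the 23 that passed the filter in every library of both groups, 5 were higher, and the Meis2 fragment of 492 bp passed through myotubes alone. Lhx2 held 58.0, 255.2 and 107.4 CPM in cultures 21, 27 and 26 (3.64 ± 0.66, edgeR, adjusted p = 0.00704). Same-numbered day 4 and ES libraries deviated together, although the labels pair no culture with an ES line. With that number as a block 5 fragments were higher, with 5.59% of all tested. The Lhx4 island fragment (3.40, adjusted p = 0.0362) and the Lhx2 377 bp fragment (3.58, adjusted p = 0.0364) passed edgeR's test there, and Nkx2-2, Hhex and the 1417 bp Meis2 fragment did not (adjusted p = 0.0547, 0.0599 and 0.0549). Without culture 21 the count was 24 (4082 of all 28274 fragments tested), and without any single ES line it was 1 or 2. In the fits without CGR8, RD1 or E14Tg2, 1273 of 27571, 1214 of 29363 and 995 of 29078 fragments were higher.

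**Figure D3:**
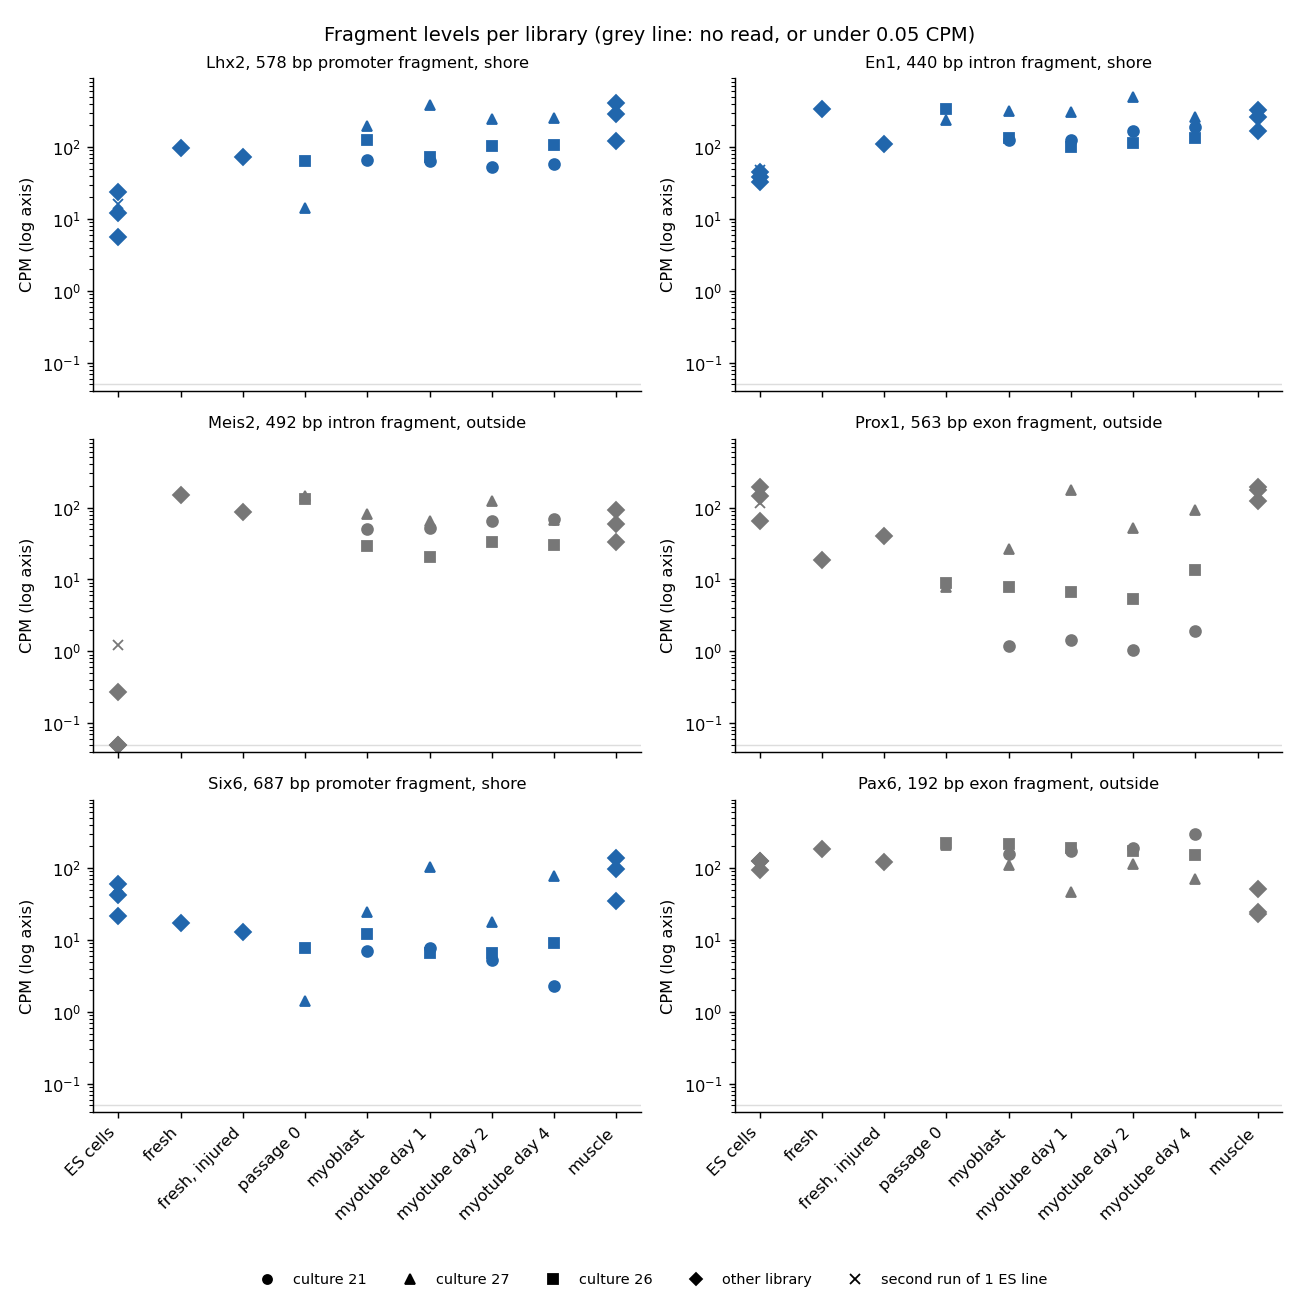
CPM (log axis) of 6 homeobox fragments in each library by sample group; symbols mark the culture and the grey line marks no read. En1 and Meis2 are lowest in ES cells, and Pax6 has its lowest values in muscle 1 and 2. Prox1 and Six6 have lower means in myoblasts than in ES cells and in muscle. For Prox1 the ES libraries hold at least 65.4 CPM and the myoblasts at most 26.4 CPM, while for Six6 these libraries overlap.

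Muscle against myoblasts set the whole tissue beside the cells cultured from muscle. Of 46 tested homeobox fragments, 14 were higher in muscle and 1 was lower, with 13.7% and 17.4% of all 20274 tested fragments (17.5% and 10.7% of those under 2000 bp). Of the 27 that passed the filter in every library of both groups, 10 were higher and 1 lower. Through muscle alone 15 passed, of which 4 were higher: Cdx1 (73 bp), Irx4 and Lhx4 (156 and 313 bp). In shores 9 of 23 were higher (31.4% of all shore fragments) and across island and shore 2 of 4 (34.4%). The median log2 change was 1.84 against 0.19 for all fragments under 2000 bp.

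The change of the Prox1 exon fragment was 4.54 ± 0.93 (edgeR, adjusted p = 0.0128), and the 195.5, 174.7 and 122.6 CPM of the muscles lay in or above the range of the ES libraries. Six6 held 95.7, 140.5 and 35.0 CPM in muscle, all above the myoblasts (3.34 ± 0.72, edgeR, adjusted p = 0.0136). The 467 bp Meis2 fragment held 51.5, 65.5 and 63.9 CPM in myoblasts and 173.6 to 296.3 CPM in muscle (2.63 ± 0.49, edgeR, adjusted p = 0.0121). The Pax6 promoter was higher by 3.58, Cdx1 by 4.72 and 2.62, Dlx6 by 3.30, Irx4 by 3.06, Hhex by 1.95, Lhx2 (578 bp) by 1.81, the Lhx4 run by 2.93, 4.54 and 3.01, and the Pitx1 promoter fragment by 2.63. Only the Hhex and Lhx2 libraries overlapped among these.

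The single lower fragment was the Pax6 exon (log2 change -1.84 ± 0.52, edgeR, adjusted p = 0.0276), with 155.5, 109.8 and 213.6 CPM in myoblasts. Its levels in precursor cells and myotubes were 46.0 to 303.0 CPM, and the lowest of these were the day 1 and day 4 libraries of culture 27. The Pax6 promoter fragment was highest among the cultured libraries in the same pair, at 262.4 and 148.0 CPM. The Pax6 exon call was lost in 7 of 12 other settings, that of Hhex in 10 and that of Lhx2 in 9. These calls rest on few libraries. Without muscle 1 no homeobox fragment was called, nor any of all 23111 fragments tested, and without muscle 2 none was, nor any of all 23481. Without culture 27 the count of higher homeobox fragments was 6 (1557 of all 21303 fragments tested), and without culture 26 it was 5 (1069 of all 21872).

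Differentiation from myoblast to day 4 myotube gave no call. None of the 44 tested homeobox fragments passed edgeR's test, 0% of the 22438 fragments tested did, and none of the homeobox fragments had an unadjusted p under 0.05, which 83 of all fragments had. DESeq2 and edgeR with culture as a block also called none of them. Their median log2 change was 0.72, against 0.29 for all fragments under 2000 bp. Within cultures the Lhx2 promoter fragment went from 65.0 to 58.0 CPM in culture 21, from 193.8 to 255.2 in culture 27 and from 124.7 to 107.4 in culture 26, without a shared direction.

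Late-passage myoblasts against passage 0 cells likewise gave no call among 44 tested homeobox fragments, nor among any of 23419 (0%). An unadjusted p under 0.05 was found for 665 of all fragments and for 2 homeobox fragments, the Meis2 LINE fragment (-1.65) and the Pitx1 promoter fragment (2.17). When only cultures 26 and 27, present at both stages, were compared with culture as a block, edgeR called 7 homeobox fragments higher at late passage, with 3.95% of all fragments tested higher. That fit has 1 residual degree of freedom among its 4 libraries, and without culture 21 but with no block edgeR called 0 of all 22202 fragments tested. The fragments were Dlx1 (4.64 ± 0.80, adjusted p = 2.39e-05), Lhx5 (2.76 and 3.75), Otx2 (3.19), Irx4 (3.15), Lhx4 (2.43) and Lhx2 (2.37). Dlx1 went from 27.7 to 430.7 CPM in culture 26 and from 1.31 to 104.9 CPM in culture 27, and the Lhx5 fragment of 367 bp from 25.5 to 68.6 and from 3.17 to 103.2 CPM. DESeq2 called 3 of all fragments and none of the homeobox fragments.

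The uncultured precursor cells, with 1 library each and hence no test, carried these fragments within or above the range of the cultured libraries. Lhx2 (578 bp) stood at 97.6 CPM in the freshly isolated cells and 72.5 CPM after injury, En1 at 339.2 and 110.4 CPM, and the Meis2 LINE fragment at 150.1 and 86.8 CPM. Dlx1 stood at 50.2 and 43.1 CPM, between the 1.31 and 27.7 CPM of passage 0 and the 107.2 to 299.7 CPM of muscle. The Prox1 fragment held 18.8 CPM in the first and 40 CPM in the second, below all ES libraries and all muscles.

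Culture 21 was often the lowest culture, or tied for lowest, among the homeobox fragments. Ties, such as those between cultures with no read, were counted for culture 21 in all counts and shares given here, which are therefore upper limits. Among the 59 fragments that reached 1 CPM, culture 21 was lowest or tied for lowest of the 3 at 49 in myoblasts, 46 at day 1, 38 at day 2 and 49 at day 4. Of all 19626 fragments under 2000 bp at that level, it was lowest or tied at 59.3%, 45.6%, 34.4% and 64.7% in the same order. For shore fragments the counts were 22 of 25 in myoblasts (74.6% of all shore fragments at that level), 19 at day 1 (67.1%), 14 at day 2 (56.7%) and 21 at day 4 (79.7%), and for fragments outside in myoblasts 11 of 17 (55.5%). Culture 21 had as many reads as the others, 11041705 to 14515828 per library.

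Single fragments differed widely between cultures, Dlx1 and Lhx4 with culture 21 lowest, Isl1 and Lhx1 in another order. Dlx1 held 3.17 to 4.89 CPM in the 4 libraries of culture 21, 103.6 to 387.4 CPM in culture 27 and 348.7 to 430.7 CPM in culture 26. Lhx4 (195 bp) held 1.17 to 2.37, 27.8 to 92.9 and 9.10 to 18.6 CPM in the same cultures. The Isl1 exon had no read in 3 of the 4 libraries of culture 27 and 0.290 CPM in the remaining one, with none in its passage 0 library, while culture 26 held 11.9 to 27.5 CPM and culture 21 3.56 to 5.13 CPM. It was also absent from RD1 and near 0 in muscle 1, so libraries of 1 group fell on both sides. Lhx1, a kidney and head organizer gene, had a 316 bp promoter fragment with reads in only RD1 (14.4 CPM), the 4 libraries of culture 21 (0.789 to 2.14 CPM) and muscle 3 (44.6 CPM).

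**Figure D4:**
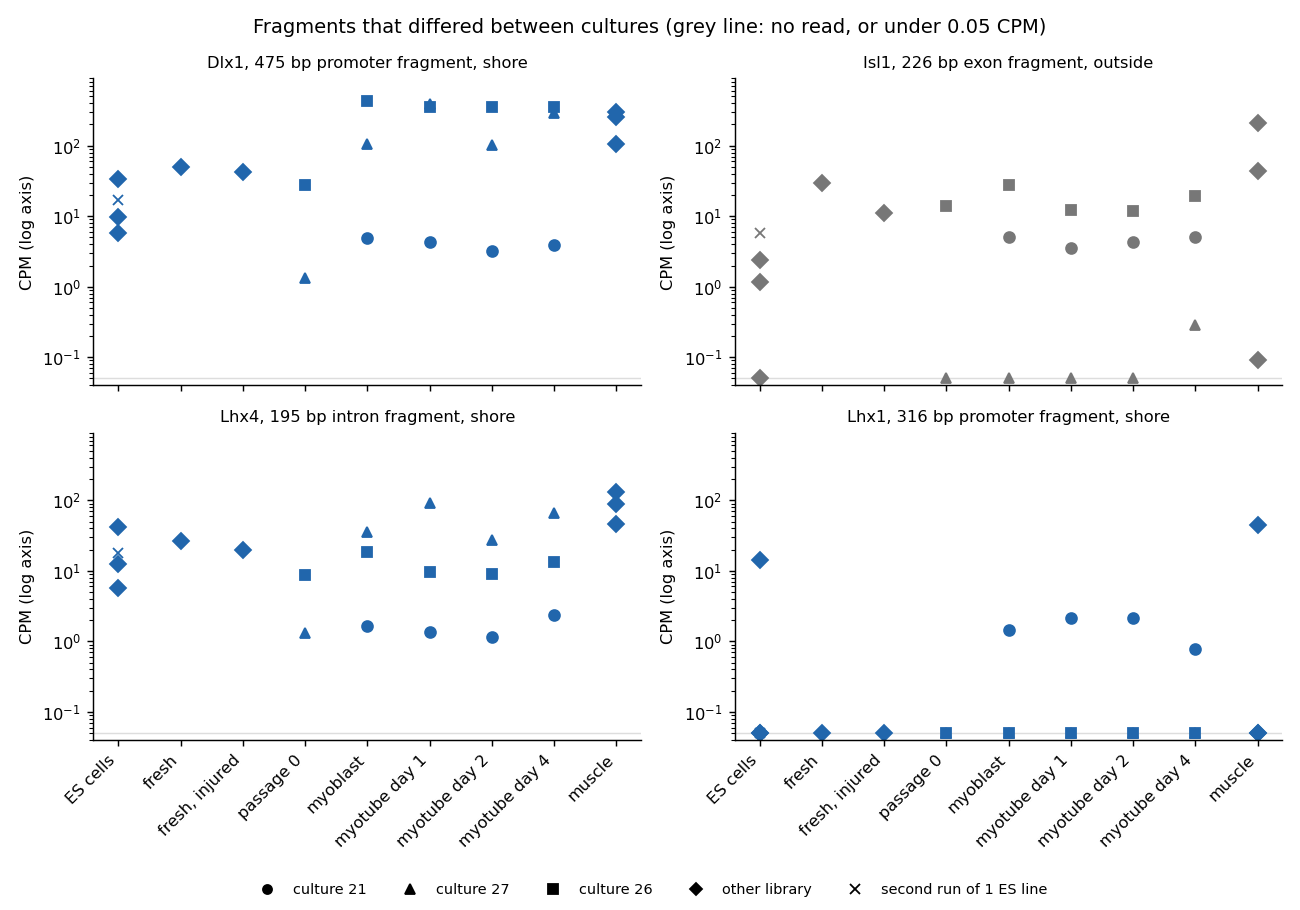
CPM (log axis) of the Dlx1, Isl1, Lhx4 and Lhx1 fragments in each library by sample group, with a symbol for each culture; the grey line marks no read or under 0.05 CPM. Among myoblasts and myotubes Dlx1 and Lhx4 are lowest in culture 21, and Isl1 lies at the grey line in culture 27 apart from 0.290 CPM at day 4.

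The other homeobox genes outside the HOX clusters, 103 genes with 382 fragments, gave 27 higher and 14 lower of 67 tested in muscle against ES cells, with a median log2 change of 0.58 (33.9% and 18.4% of all tested under 2000 bp were higher and lower), and 9 higher and 3 lower of 61 in muscle against myoblasts (17.5% and 10.7% of all). Against ES cells they gave 6 higher and 6 lower of 64 in myoblasts (10.7% and 8.4% of all) and 2 higher and 1 lower of 65 at day 4 (7.2% and 0.8% of all). Genes of Polycomb subunits and partners, 30 genes with 107 fragments, gave 9 higher and 2 lower of 18 in muscle against ES cells, with a median of 1.41, against the same 33.9% and 18.4%. A Pcgf2 fragment across island and shore (log2 change 5.96) and Bcor fragments in island and shore (4.97 and 4.62), both of PRC1 complexes, were among the higher ones, and Aebp2, a PRC2 partner, had a lower one (-1.52).

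Marker genes were examined for what the samples could hold, although methylation fragments do not measure expression. In muscle against ES cells, fragments of pluripotency genes were higher at 3 of 3 tested and those of muscle precursor genes at 7 of 11, with 1 lower, against 33.9% higher and 18.4% lower among all tested fragments under 2000 bp. Muscle fibre genes gave 2 higher of 7, blood genes 3 higher and 2 lower of 9, endothelial genes 5 higher and 2 lower of 11, fibroblast genes 1 of each of 2, adipocyte genes 1 higher of 2 and Schwann cell genes 2 higher of 5. In muscle against myoblasts, fragments of muscle precursor genes were higher at 6 of 10 tested, of pluripotency genes at 2 of 3 and of muscle fibre genes at 2 of 6, with none lower. The fragments called higher were 2 of 9 for blood (with 2 lower), 2 of 10 for endothelial, 1 of 2 for fibroblast, 2 of 2 for adipocyte and 3 of 5 for Schwann cell genes. Among all under 2000 bp 17.5% were higher and 10.7% lower. Whole muscle contains blood, endothelial, fibroblast, adipocyte and Schwann cells besides fibres, and their part in the homeobox levels of muscle was not tested.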

How the data were processed

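Sites methylated in 23 mouse libraries were profiled by AIMS-seq. The authors aligned reads to mm9 and deposited 1 table of counts per restriction fragment and library, with the CpG class of each fragment; Bowtie 0.11.3 and DESeq are named in the submitters' processing notes, with no role given. From these deposited counts, CPM of all reads of a library were computed. Fragments were tested in 2-group fits with edgeR 4.0.16 (R 4.3.3; quasi-likelihood test on TMM-scaled libraries, low counts removed by filterByExpr at a minimum of 10), with Benjamini-Hochberg adjustment over all fragments tested, of any length, in each of 6 comparisons. The CGR8 runs were summed. Gene positions came from the GENCODE mm9 annotation. The script was tested on simulated counts.

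The members and gene lists were chosen with earlier results of these data known. Named fragments were up to 10 called ones with the smallest adjusted p per direction and comparison, the most-read fragment of 16 listed genes and of each CpG class, and every fragment of the genes with most calls in muscle against ES cells (Lhx2, Lhx4, Meis2 and Pitx1, tied). Alternatives were DESeq2 1.42.0, other scalings, filters, fits and technical runs, and leaving out each replicate. Cultures pair day 4 with myoblasts (correlations of deviations 0.852, 0.652 and 0.699) and myoblasts with passage 0 (0.441 and -0.044); day 4 and ES numbers gave 0.48, 0.296 and 0.248.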

Additional observations from a re-analysis of the deposited data

Results flagged for a closer look

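The exon fragment of Prox1 (563 bp, outside islands and shores) differed between muscle and myoblasts by 4.54 on the log2 scale, and was called in opposite directions against ES cells: lower in myoblasts (-3.47) and higher in muscle (1.21). It had 1.18, 26.4 and 7.94 CPM in myoblasts, 195.5, 174.7 and 122.6 CPM in muscle and 65.4 to 194.1 CPM in ES libraries. The promoter shore fragment of Six6 (687 bp) showed the same order, with a difference of 3.34 between muscle and myoblasts, -1.53 for myoblasts and 1.91 for muscle against ES cells. Culture 27 at day 1 reached 173.5 CPM for Prox1 and 105.3 CPM for Six6, within the range of muscle. With library totals the changes in muscle against ES cells were 0.38 and 0.97 and neither was called, and the call of Six6 in myoblasts against ES cells was lost in 11 of 13 other settings. The difference from myoblasts to muscle was not called for either fragment without muscle 1, without muscle 2 or with all groups in 1 fit. Leaving out muscle 1 or muscle 2 left no call among all fragments tested.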

How the results depend on the processing

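Counts of called homeobox fragments moved with the settings as follows. Myoblasts against ES cells (7 higher, 3 lower) gave 11 higher with DESeq2, and 4 with all groups in 1 fit, with fragments under 2000 bp alone, with library totals and with the replicate block. Of all fragments tested, 2068 of 25152 were higher in the main fit and 3014 with DESeq2. The remaining settings, in the same order, gave 2321 of 38575, 1538 of 16031, 1808 of 25152 and 2104 of 25152. Lower calls were 1 with the ES libraries kept apart (2903 of all 26267) and 0 with all groups in 1 fit (1914 of all 38575). Leaving out each replicate gave 4 to 18 higher and 1 to 3 lower, with 1523 to 3922 higher and 1618 to 3499 lower among all fragments. Day 4 against ES cells (6 higher) gave 16 with DESeq2, 3 with fragments under 2000 bp alone, 3 with library totals, 27 with no filter, and 1 to 24 higher and 0 to 2 lower without each replicate. Of all fragments, 1382 of 25497 were higher in the main fit. The same settings gave 2615 of 25497, 950 of 16464, 1165 of 25497 and 4214 of 143998. Without each replicate it was 995 to 4082 higher and 1018 to 2215 lower. Muscle against ES cells (33 higher, 2 lower) gave 30 to 37 higher and 0 to 3 lower without each replicate. Among all fragments these fits gave 4710 to 6577 higher and 6118 to 10017 lower, beside 5616 and 7959 of 22980 in the main fit. Lower calls were 4 with fragments under 2000 bp alone and with library totals, 1 with ES libraries apart, no filter or the replicate block, and 0 with all groups in 1 fit. In that order, lower among all fragments were 4165 of 15811, 11063 of 22980, 7873 of 24862, 11464 of 141892, 7911 of 22980 and 8134 of 38575. Muscle against myoblasts (14 higher, 1 lower) gave 2 higher and 0 lower with all groups in 1 fit, 7 higher with library totals, 5 higher and 0 lower with the replicate block, 0 lower with no filter, and 0 to 19 higher and 0 to 1 lower without each replicate. Of all fragments, 2779 of 20274 were higher in the main fit. All groups in 1 fit, library totals and the replicate block gave 1029 of 38575, 1283 of 20274 and 844 of 20274. Without each replicate it was 0 to 3491 higher and 0 to 4616 lower. Myoblasts against passage 0 (0 called) gave 1 higher with no filter (51 of all 134569) and 7 with culture as replicate block on the 4 libraries of cultures 26 and 27 (878 of all 22202). Without culture 21 and with no block the count was 0, also among all fragments. Day 4 against myoblasts stayed at 0 in all settings run.

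Directions turned for uncalled Lhx2 and Meis2 fragments. Lhx2 of 1068 bp (0.01) became -0.44 with fragments under 2000 bp alone, -0.82 with library totals, -0.05 with no filter, and -0.03 to 0.34 without each replicate. Lhx2 of 1675 bp (0.81) became -0.05 with library totals. Meis2 of 1648 bp (0.40) became -0.05 with fragments under 2000 bp alone and -0.40 with library totals. Meis2 of 1603 bp (-0.03) became 0.06 with DESeq2, 0.10 with ES libraries apart, 0.01 with all groups in 1 fit, and -0.04 to 0.27 without each replicate. The cause was not tested.

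In all named fragments, these Lhx2 and Meis2 fragments included, 92 values under other settings and 102 without a replicate kept their direction but not their call. Direction and status, as called or not called, were both kept in 331 and 275. Of the class sums, 21 of 144 moved by more than 1 SD under another length limit, scaling, gene window or denominator. The labels pair no ES line with a culture at any stage, and no muscle with either. Correlations of same-numbered libraries in muscle against myoblasts were -0.225, 0.146 and -0.409. Levels under the limit of a count of 0 cannot be ranked.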
